A study of Mus musculus with 20 samples.

Results

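The globin genes encode the protein chains of haemoglobin. The set described here was a fixed list of 8 mouse symbols, namely 7 globin genes and a further gene tied to alpha-globin, and it was matched by Ensembl gene identifier to a table of 37748 gene entries. All 7 globin genes were found, and the remaining listed gene was not analysed here. The 7 were the adult alpha-globin genes Hba-a1 and Hba-a2, the adult beta-globin genes Hbb-bs and Hbb-bt, the embryonic alpha-like gene Hba-x, and the embryonic or fetal beta-like genes Hbb-y and Hbb-bh1.

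RNA was sequenced from CFU-E, the red cell progenitors of late erythroid commitment, sorted from mouse bone marrow. All mice carried Mx1-Cre, a Cre recombinase under an interferon-responsive promoter that is active in blood-forming and other cells, and the mutant mice also carried Srsf2 P95H on 1 allele (Srsf2 P95H/+, called P95H below). Each genotype received under the skin either PBS, the saline vehicle, or phenylhydrazine (PHZ), which lyses red cells, 30 mg/kg on day 0 and again on day 1, and cells were sorted on day 4. Each of the 4 groups (Mx1-Cre PBS, Mx1-Cre PHZ, P95H PBS and P95H PHZ) held 5 libraries, 20 in all. A separate animal number stands in the name of every library. The sources used here do not give the age, sex or background strain of the mice, or how and when Cre was induced. The sort took live, lineage-negative, c-Kit-high and CD105-positive cells that lacked Sca-1, CD41, CD16/32 and CD150.

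Haemoglobin is built from alpha-like and beta-like chains held around haem, and the chains come from separate gene clusters on different chromosomes. Within each cluster the embryonic genes are used by primitive red cells of the yolk sac, and the adult genes by the definitive red cells made in fetal liver and bone marrow. The clusters are driven by distant enhancers and by factors such as GATA1, KLF1 and TAL1, and red cells need the chains in balance because unpaired chains precipitate, as happens in the thalassaemias. In CFU-E, globin transcripts are still low compared with the maturing erythroblasts that follow.

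The adult genes come in near-identical copies, which limits what short reads can say about each. In the GENCODE vM21 transcripts, the coding sequences of Hba-a1 and Hba-a2 differed at 1 of 429 bases (99.8% identity) and shared a run of 415 transcript bases. Those of Hbb-bs and Hbb-bt differed at 1 of 444 coding bases (99.8%) and shared a run of 430. The stretches around these single differences are printed below because only they, and untranslated ends, separate the copies. Capitals mark the differing base, at coding position 381 in the alpha pair and 417 in the beta pair, counted from 1 at the A of the start codon.
Hba-a1: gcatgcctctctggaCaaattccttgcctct
Hba-a2: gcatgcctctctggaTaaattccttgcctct
Hbb-bs: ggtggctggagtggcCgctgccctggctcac
Hbb-bt: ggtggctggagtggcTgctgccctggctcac

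Reads from the shared runs cannot be assigned to 1 copy by sequence, so each copy's level is uncertain and the alpha pair and the beta pair were also read as sums. The embryonic genes were more distinct. The coding sequence of Hba-x was 62.0% identical to Hba-a1, and those of Hbb-bh1 and Hbb-y were 74.1% and 74.3% identical to Hbb-bs.

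In GRCm38 coordinates, the alpha-like genes lay on the plus strand of chromosome 11 and the beta-like genes on the minus strand of chromosome 7, all annotated as protein coding. Hba-x (ENSMUSG00000055609) spanned chr11:32276400-32278116, Hba-a1 (ENSMUSG00000069919) chr11:32283511-32284465 and Hba-a2 (ENSMUSG00000069917) chr11:32296489-32297298. Hbb-bt (ENSMUSG00000073940) spanned chr7:103812524-103813996, Hbb-bs (ENSMUSG00000052305) chr7:103826534-103828096, Hbb-bh1 (ENSMUSG00000052217) chr7:103841637-103843164 and Hbb-y (ENSMUSG00000052187) chr7:103851749-103853216.

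Promoters are printed because the adult pairs differ in how much of this stretch they share. The 110 bases before each RefSeq start (GRCm38.p6) were available for 6 of the 7 genes, written 5′ to 3′ on the gene's strand. These starts differ from those of the spans above, so the windows of Hba-x, Hba-a1 and Hbb-bs lie inside the spans. The other windows overlap their spans in part. Capitals mark 4 short motifs searched on either strand. They are the CACCC motif of KLF-type factors, the GATAA motif of GATA factors, the CCAAT box and the TATAA core of the TATA box. No matches overlapped, although in Hbb-bt a match on the minus strand directly adjoins the next on the plus strand.
Hba-a1, chr11:32283562-32283671, plus strand: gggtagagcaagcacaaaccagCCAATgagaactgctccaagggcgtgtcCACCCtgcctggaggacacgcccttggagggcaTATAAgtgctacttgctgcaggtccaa
Hba-a2, chr11:32296382-32296491, plus strand: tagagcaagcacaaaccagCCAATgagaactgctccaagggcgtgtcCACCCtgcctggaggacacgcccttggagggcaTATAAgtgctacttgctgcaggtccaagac
Hba-x, chr11:32276490-32276599, plus strand: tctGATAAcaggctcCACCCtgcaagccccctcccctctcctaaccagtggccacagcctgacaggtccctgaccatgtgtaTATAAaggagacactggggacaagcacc
Hbb-bs, chr7:103827929-103828038, minus strand: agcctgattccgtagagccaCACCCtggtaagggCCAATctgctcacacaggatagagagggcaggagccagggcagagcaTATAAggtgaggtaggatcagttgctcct
Hbb-bt, chr7:103813924-103814033, minus strand: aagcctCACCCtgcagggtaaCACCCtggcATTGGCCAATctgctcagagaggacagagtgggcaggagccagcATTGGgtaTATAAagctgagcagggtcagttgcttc
Hbb-y, chr7:103853208-103853317, minus strand: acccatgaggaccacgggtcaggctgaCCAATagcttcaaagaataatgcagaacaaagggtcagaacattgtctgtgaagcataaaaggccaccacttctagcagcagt

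The adult alpha copies shared an unbroken run of 107 of these 110 bases, whereas the longest run shared by the adult beta copies was 14 bases. All 4 adult promoters held the KLF-type motif, the CCAAT box and the TATA core together, as did 0.614% of 27025 mouse promoters over the same window. Hbb-bt held 2 matches of the KLF-type motif and 3 of the CCAAT box, against 1 of each in the other adult genes. Hba-x held the KLF-type motif, the GATA motif and the TATA core but no CCAAT box, and of the 4 motifs Hbb-y held only the CCAAT box. Singly, the KLF-type motif was in 29.2% of all promoters, the CCAAT box in 21.0%, the TATA core in 11.5% and the GATA motif in 9.57%. A match is a description of the letters and not a site of binding.

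The deposited values are a normalised signal that behaves like TPM, a level scaled by transcript length and library total, and they sum to between 924763 and 1085047 in a library. The labels state at least 100000000 reads a library, paired and 150 bp long, but the values hold no read counts, so no counting interval was given. The sorted cells carried the CFU-E markers, with Kit between 40.9 and 155, Eng (CD105) between 84.0 and 125 and Gata1 between 172 and 247 over the 20 libraries. Markers that the sort removed were low, with a highest value of 1.07 for Ly6a (Sca-1) and 0.160 for Slamf1 (CD150). Granulocyte and monocyte genes were present and uneven, with a summed level in Mx1-Cre mice of 459 to 965 under PBS and 153 to 1087 after PHZ, and in P95H mice of 570 to 2494 under PBS and 160 to 602 after PHZ. The p-values below rest on the spread among these libraries. In bulk RNA, fewer cells of a type and less RNA per cell cannot be told apart.

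Of the 7 globin genes found, the adult ones were the only genes expressed above trace level. Together, Hba-a1, Hba-a2, Hbb-bs and Hbb-bt took 0.256% ± 0.0617 of the summed signal under PBS and 0.211% ± 0.0417 after PHZ in Mx1-Cre mice (SD, n = 5). The same shares in P95H mice were 0.240% ± 0.0441 and 0.284% ± 0.146 (SD, n = 5). By level within a library, Hba-a1 ranked between 94 and 283 of all entries, and the other adult genes between 145 and 708. These 4 genes passed the filter of a signal of at least 1 in at least 5 libraries, as did 10890 entries, and the 3 embryonic genes did not.

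Hba-a1, which encodes adult alpha-globin, was the highest of the 7 globin genes in all 4 groups. Its signal in replicates 1 to 5 was 1135, 1561, 1439, 1209 and 851 in Mx1-Cre PBS, and 1075, 819, 649, 1007 and 765 in Mx1-Cre PHZ. It was 1482, 1202, 1107, 910 and 943 in P95H PBS, and 1464, 559, 961, 469 and 1701 in P95H PHZ. The P95H PHZ libraries held both the lowest and the highest value of all 20, and every pair of groups overlapped. The group means were 1239 ± 277, 863 ± 175, 1129 ± 231 and 1031 ± 543 (SD, n = 5).

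Hba-a2, the second adult alpha copy, was below Hba-a1 in each of the 20 libraries, with a ratio of Hba-a1 to Hba-a2 between 1.64 and 2.66. Its signal was 507, 705, 657, 717 and 406 in Mx1-Cre PBS, and 409, 380, 294, 401 and 318 in Mx1-Cre PHZ. It was 646, 664, 416, 524 and 531 in P95H PBS, and 661, 340, 406, 226 and 862 in P95H PHZ. In Mx1-Cre mice 4 of the 5 PHZ libraries lay below the lowest PBS library, and replicate 1 lay just above it. The means were 599 ± 136, 360 ± 51.4, 556 ± 102 and 499 ± 258 (SD, n = 5).

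Hbb-bs, which encodes an adult beta-globin, had a signal of 271, 553, 473, 307 and 255 in Mx1-Cre PBS, and 447, 379, 273, 434 and 327 in Mx1-Cre PHZ. It was 469, 493, 344, 304 and 291 in P95H PBS, and 774, 272, 591, 214 and 1018 in P95H PHZ. The 3 highest values of all 20 libraries and the lowest were in the P95H PHZ group. The means were 372 ± 133, 372 ± 73.0, 380 ± 94.5 and 574 ± 339 (SD, n = 5).

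Hbb-bt, the second adult beta copy, had a signal of 315, 527, 456, 424 and 278 in Mx1-Cre PBS, and 549, 527, 387, 537 and 369 in Mx1-Cre PHZ. It was 452, 465, 355, 307 and 268 in P95H PBS, and 701, 360, 619, 285 and 814 in P95H PHZ. The means were 400 ± 102, 474 ± 88.0, 369 ± 87.0 and 556 ± 226 (SD, n = 5). Hbb-bs and Hbb-bt stayed near parity, with a ratio of Hbb-bs to Hbb-bt between 0.706 and 1.25.

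The order of the mean levels differed between the treatments. Under PBS, Hba-a1 was followed by Hba-a2 and then by the beta genes, in both genotypes. After PHZ, Hba-a2 had the lowest mean of the 4 in both genotypes. Below Hba-a1, neighbours in the order after PHZ lay within an SD of each other in P95H mice, and in Mx1-Cre mice Hbb-bs and Hba-a2 did too.

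**Figure D1:**
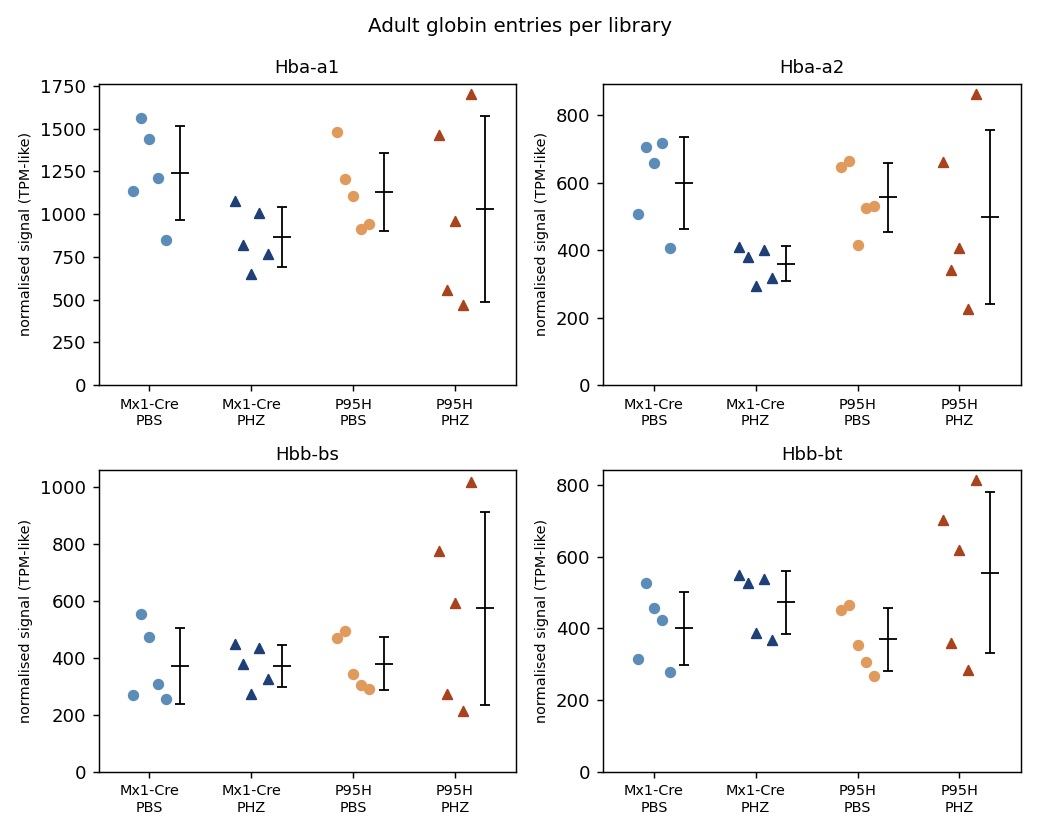
Deposited signal (TPM-like) of the 4 adult globin genes in each of the 20 libraries, by group; points are libraries and bars are the mean ± SD of 5 libraries. For each gene, groups of the same genotype or the same treatment overlap. The P95H PHZ libraries spread widest, from 469 to 1701 for Hba-a1.

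The embryonic genes were at trace level in every group. Hba-x, the embryonic zeta-type alpha chain, was listed at 0 in 1 library and had a highest signal of 1.04, in Mx1-Cre PBS replicate 2. Hbb-y, the embryonic epsilon-type beta chain, was listed at 0 in 2 libraries and reached at most 0.679. Hbb-bh1, a beta-like chain of primitive red cells, was listed at 0 in 19 libraries and at 0.377 in Mx1-Cre PHZ replicate 1. No embryonic gene reached a signal of 1 in more than 1 library.

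PHZ was compared with PBS in Mx1-Cre mice, which asks how stress from red cell loss changed the globin message. None of the 4 adult genes was called by limma at an adjusted p under 0.05, where 31.9% of the 10890 entries were called. An unadjusted p under 0.05 was seen for 1 of the 4 and for 4541 of the 10890 entries. That gene was Hba-a2, with a log2 fold change of -0.71 (SE 0.279, 95% interval -1.30 to -0.12, unadjusted p = 0.0211, limma adjusted p = 0.0620). Hba-a1 had a log2 fold change of -0.51 (95% interval -1.15 to 0.12, adjusted p = 0.210). The beta genes pointed the other way, with 0.05 (adjusted p = 0.936) for Hbb-bs and 0.26 (adjusted p = 0.495) for Hbb-bt. The median over the 4 was -0.23, beside -0.00153 over all entries. Without Mx1-Cre PBS replicate 5, or P95H PHZ replicate 4 or 5, Hba-a2 passed (adjusted p = 0.0355, 0.0245 and 0.0276). None of the 4 had PHZ and PBS libraries without overlap, which 22.4% of the entries had.

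As sums, adult alpha-globin went from 1838 ± 398 to 1224 ± 224 and adult beta-globin from 772 ± 231 to 846 ± 157 (SD, n = 5). The alpha sum had a log2 fold change of -0.58 (SE 0.287, 95% interval -1.18 to 0.03, limma adjusted p = 0.139) and the beta sum one of 0.16 (SE 0.313, interval -0.50 to 0.82, adjusted p = 0.733). Neither passed. The call on the alpha genes depended on which libraries set the spread. With only the 10 Mx1-Cre libraries in the fit, which leaves out the widely spread P95H PHZ group, the alpha sum passed at the same fold change (adjusted p = 0.0237). Hba-a2 (adjusted p = 0.00823) and Hba-a1 (adjusted p = 0.0491) passed there too, and the beta genes did not.

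In P95H mice the same comparison called none of the 4, beside 30.2% of all entries, and none had an unadjusted p under 0.05, beside 4453 of the 10890 entries. Libraries without overlap were seen for none of the 4 and for 17.6% of the entries. Hba-a1 and Hba-a2 each had a log2 fold change of -0.29 (limma adjusted p = 0.507 and 0.460). Hbb-bs had one of 0.39 (adjusted p = 0.460) and Hbb-bt one of 0.51 (SE 0.268, 95% interval -0.05 to 1.08, adjusted p = 0.161). Without P95H PHZ replicate 4, the lowest library of its group, Hbb-bt was 0.72 and passed (adjusted p = 0.0334). The alpha sum was 1685 ± 301 under PBS and 1530 ± 797 after PHZ (SD, n = 5), a log2 fold change of -0.29 (interval -0.90 to 0.31, adjusted p = 0.479). The beta sum was 750 ± 181 and 1130 ± 562 (SD, n = 5), a change of 0.46 (interval -0.20 to 1.12, adjusted p = 0.288). Single libraries of the P95H PHZ group moved both values. The alpha change was -0.52 without replicate 5, -0.45 without replicate 1, -0.14 without replicate 2 and -0.05 without replicate 4. The beta change was 0.24 without replicate 5 and 0.71 without replicate 4, and neither sum passed in these fits. The median over the 4 genes was 0.05, beside -0.0153 over all entries.

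The genotypes were compared under each treatment, which asks whether the Srsf2 mutation altered globin message in these progenitors. Under PBS none of the 4 adult genes was called (1.48% of all entries were), and after PHZ none was called either (5.47% of all entries). None had an unadjusted p under 0.05 in limma in either comparison, beside 1539 of the 10890 entries under PBS and 2341 after PHZ. Groups without overlap were seen for none of the 4, beside 3.67% of entries under PBS and 6.95% after PHZ. Under PBS the log2 fold changes of P95H against Mx1-Cre ran from -0.13 for Hba-a1 to 0.07 for Hbb-bs, with adjusted p-values of at least 0.895. The alpha sum differed by -0.11 (95% interval -0.72 to 0.49) and the beta sum by -0.02 (interval -0.68 to 0.64).

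After PHZ the log2 fold changes of P95H against Mx1-Cre were 0.10 for Hba-a1, 0.32 for Hba-a2, 0.41 for Hbb-bs and 0.14 for Hbb-bt, with limma adjusted p-values between 0.549 and 0.889. The alpha sum differed by 0.17 (95% interval -0.43 to 0.78) and the beta sum by 0.27 (interval -0.39 to 0.93). All 4 intervals include 0, and with 5 libraries a group differences of any size inside them remain possible. The difference between the genotypes in their PHZ change was also tested, as an interaction. None of the 4 was called, as 0% of all entries were, and 577 of the 10890 entries had an unadjusted p under 0.05. The interaction was 0.29 (SE 0.406, adjusted p = 0.874) for the alpha sum and 0.30 (SE 0.442, adjusted p = 0.881) for the beta sum. Leaving out 1 library at a time gave 0.06 (without P95H PHZ replicate 5) to 0.53 (without P95H PHZ replicate 4) for the alpha sum and 0.08 to 0.55, without the same libraries, for the beta sum. Both sums also moved by over 1.5 times without P95H PHZ replicate 1 or 2, and the beta sum without Mx1-Cre PBS replicate 2. The genotype difference after PHZ ranged over such fits from -0.06 to 0.41 for the alpha sum and from 0.06 to 0.52 for the beta sum.

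The balance of adult alpha to adult beta message did change with treatment. The ratio of the summed alpha to the summed beta signal, taken within each library, was 2.80, 2.10, 2.26, 2.63 and 2.36 in Mx1-Cre PBS. It was 1.49, 1.32, 1.43, 1.45 and 1.56 in Mx1-Cre PHZ. Every Mx1-Cre PHZ library was below every Mx1-Cre PBS library.

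In P95H mice the ratio was 2.31, 1.95, 2.18, 2.35 and 2.64 under PBS, and 1.44, 1.42, 1.13, 1.39 and 1.40 after PHZ. Again no PHZ library reached the lowest PBS library. The group means were 2.43 ± 0.286 and 1.45 ± 0.0856 in Mx1-Cre mice and 2.28 ± 0.251 and 1.36 ± 0.129 in P95H mice (SD, n = 5). In P95H PHZ the highest ratio was 1.28 times the lowest, while the alpha sum differed 3.68-fold and the beta sum 3.67-fold between libraries. In P95H PBS these figures were closer, 1.35 for the ratio, 1.48 for the alpha sum and 1.71 for the beta sum.

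On the log2 scale the ratio fell by 0.74 after PHZ in Mx1-Cre mice, from 1.27 ± 0.169 to 0.53 ± 0.0860, which is a ratio 0.599 times that under PBS (two-sided exact permutation test, p = 0.00794, adjusted p = 0.0159 over 4 comparisons). It fell by 0.75 in P95H mice, from 1.18 ± 0.159 to 0.43 ± 0.147, or 0.595 times (exact permutation p = 0.00794, adjusted p = 0.0159). A p of 0.00794 is the smallest that 5 against 5 libraries can give. Between the genotypes the ratio differed by -0.09 under PBS (exact permutation p = 0.421, adjusted p = 0.421) and by -0.10 after PHZ (exact permutation p = 0.238, adjusted p = 0.317). Without Mx1-Cre PHZ replicate 2 the latter was -0.13 and passed (exact permutation adjusted p = 0.0423). Whether the fall differed between the genotypes was not tested.

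**Figure D2:**
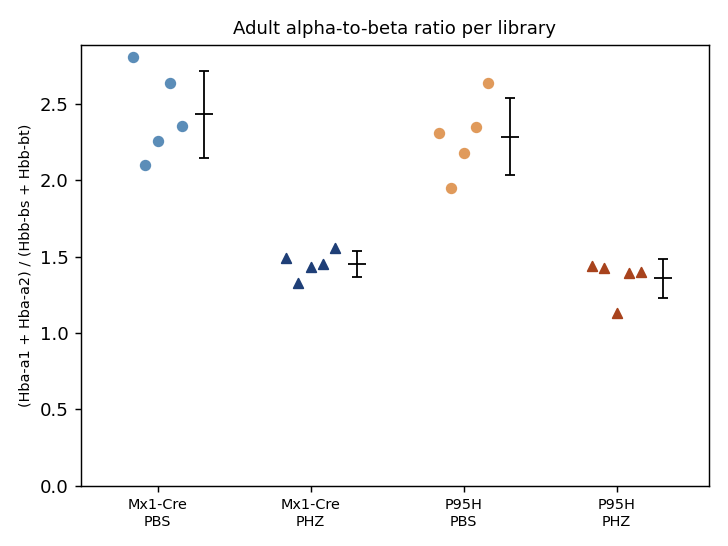
Ratio of summed adult alpha (Hba-a1 and Hba-a2) to summed adult beta (Hbb-bs and Hbb-bt) signal in each library, by group, with the mean ± SD of 5 libraries. The PBS libraries sit between 1.95 and 2.80 and the PHZ libraries between 1.13 and 1.56, with no overlap.

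Because reads cannot always be assigned to a copy, the ratio was also formed from single copies, a choice made after the data were seen. After PHZ, each of the 4 possible ratios of an alpha to a beta copy fell in both genotypes, by 0.56 to 0.97 on the log2 scale in Mx1-Cre mice and by 0.68 to 0.81 in P95H mice. The adjusted p was 0.0159 (exact permutation) for all but Hba-a2 over Hbb-bs, where it was 0.0317 in both genotypes. The ratio of Hba-a1 to Hbb-bs also differed between the genotypes after PHZ, by -0.31 in P95H against Mx1-Cre (exact permutation p = 0.0159, adjusted p = 0.0212). The ratio of Hba-a2 to Hbb-bt had the opposite sign there, 0.18 (exact permutation adjusted p = 0.265). The share of each copy within its pair was tested in the same way, also after the data were seen. None of the 8 comparisons of Hba-a1 to Hba-a2 or of Hbb-bs to Hbb-bt passed (lowest adjusted p = 0.222, exact permutation).

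The alpha and beta sums moved together between libraries of a treatment, along separate lines for PBS and PHZ. In all, 8 relations within treatments were computed, after the data were seen. Over the 10 PBS libraries, Pearson's r between the log2 sums was 0.910 (permutation adjusted p = 0.00156) and Spearman's rho 0.855 (adjusted p = 0.00491). Over the 10 PHZ libraries, r was 0.977 (permutation p = 1e-05, the smallest that 100000 resamples can give, adjusted p = 8e-05) and rho 0.964 (adjusted p = 0.00056). Without the 2 libraries farthest from the median alpha sum, r was 0.851 and 0.946. Both sums share a library, its normalisation and its makeup of cells.

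**Figure D3:**
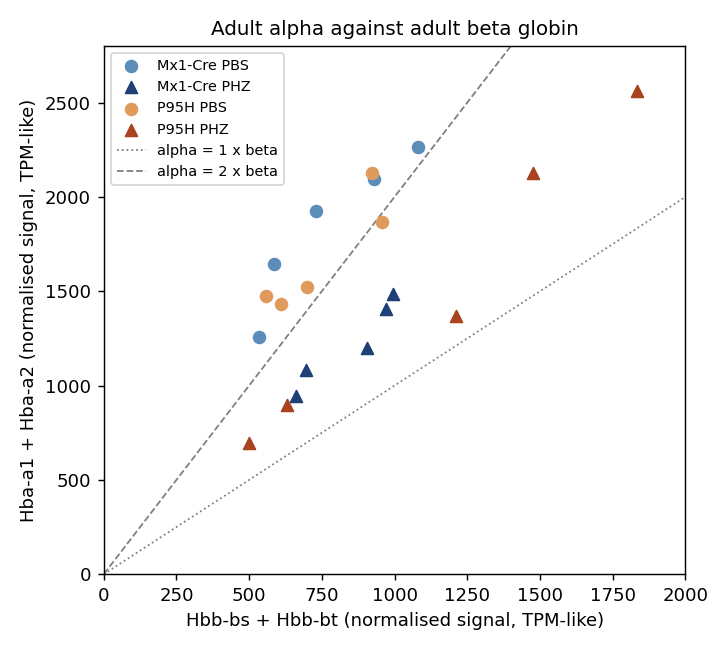
Summed adult alpha signal and summed adult beta signal, 1 point per library, coloured by group. PBS and PHZ libraries form separate bands, with r between the log2 sums of 0.910 and 0.977 within treatment. At a like alpha sum the PHZ libraries have the higher beta sum.

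P95H mice after PHZ had the widest spread of globin levels. The alpha sum in replicates 1 to 5 was 2125, 899, 1366, 696 and 2563, and the beta sum was 1475, 631, 1210, 499 and 1832. The highest was 3.68 times the lowest for alpha, beside 1.80 and 1.57 times in Mx1-Cre mice under PBS and PHZ and 1.48 times in P95H mice under PBS. All 4 adult genes ranked these 5 libraries in the same order, with replicates 5 and 1 high and replicates 2 and 4 low. The coefficient of variation of Hba-a1 was 52.7% there and between 20.3% and 22.3% in the other groups. The spread itself was not tested between groups.

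Genes of late red cell maturation followed the same libraries. The mean log2 signal of 18 late erythroid markers was 6.14, 5.62, 5.93, 5.53 and 6.33 in P95H PHZ replicates 1 to 5, the order of the globins. Its group values under PBS and after PHZ were 6.07 ± 0.163 and 5.94 ± 0.153 in Mx1-Cre mice, and 5.94 ± 0.121 and 5.91 ± 0.340 in P95H mice (SD, n = 5). Over the 10 PHZ libraries this mean correlated with the alpha sum (r = 0.943, permutation adjusted p = 0.00024, rho = 0.952, adjusted p = 0.00056) and with the beta sum (r = 0.927, permutation adjusted p = 0.00064, rho = 0.903, adjusted p = 0.00208). Leaving out the 2 farthest libraries gave r of 0.863 and 0.829.

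Over the 10 PBS libraries the same relations gave r of 0.851 for the alpha sum (permutation adjusted p = 0.0056, rho = 0.830, adjusted p = 0.00619) and 0.779 for the beta sum (permutation adjusted p = 0.0174, rho = 0.867, adjusted p = 0.00452). Leaving out the 2 farthest libraries gave 0.792 and 0.702. The alpha-to-beta ratio did not pass such a test, with r of -0.277 under PBS (permutation adjusted p = 0.495, rho = -0.491, adjusted p = 0.175) and -0.0567 after PHZ (permutation adjusted p = 0.881, rho = 0.0788, adjusted p = 0.838). Leaving out the 2 farthest libraries gave r of -0.290 and -0.0991.

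**Figure D4:**
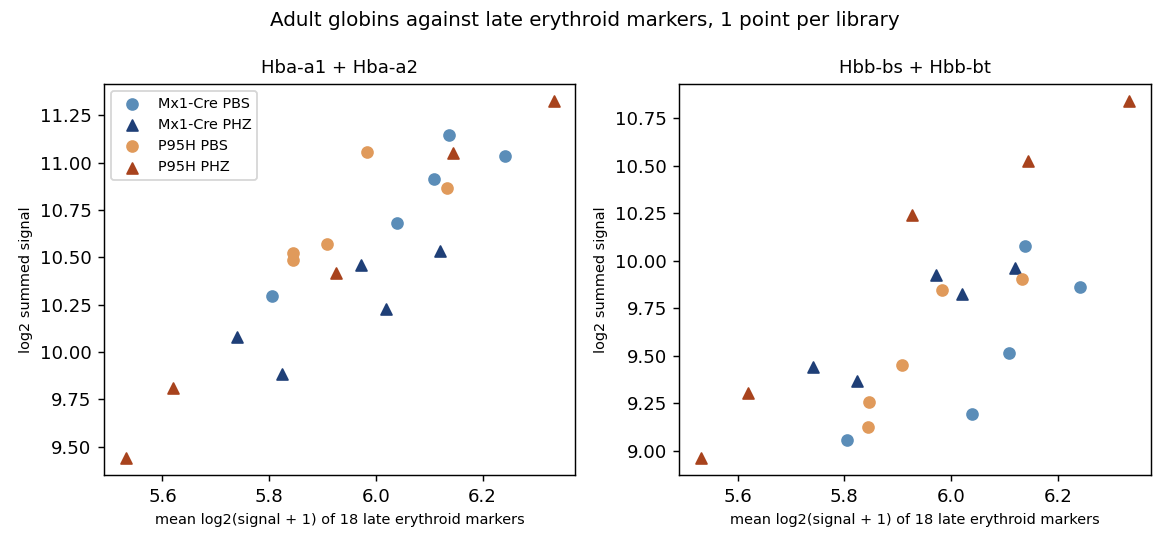
Log2 alpha sum and log2 beta sum against the mean log2 signal of 18 late erythroid markers, 1 point per library, coloured by group. Both sums rise with the marker mean within each treatment.

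The globin sums were therefore also read relative to that marker mean, in 8 comparisons added after the data were seen. In Mx1-Cre mice the alpha sum less the marker mean differed by -0.45 on the log2 scale after PHZ, and no PHZ library reached the lowest PBS library, but the exact permutation p of 0.00794 gave an adjusted p of 0.0635. The beta sum less the marker mean differed by 0.29 in Mx1-Cre mice and by 0.49 in P95H mice (exact permutation adjusted p = 0.275 for both). The alpha value in P95H mice was -0.26 (exact permutation adjusted p = 0.495). None of the 8 passed. The p of 0.00794 is the smallest that 5 against 5 libraries can give. Over 8 comparisons, 1 alone at that p cannot pass, however far apart its groups lie.

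Over all 20 libraries, taken as deviations from the group means, the genes most like the alpha sum among 8513 included Dek (Pearson's r = 0.943), Wapl (0.936), Alas2 (0.934) and Slc4a1 (0.933). Those most like the beta sum included Alas2 (0.948), Ahi1 (0.947), Slc4a1 (0.940) and Trim10 (0.935). Alas2 encodes the first enzyme of haem synthesis in red cells, and Slc4a1 the anion exchanger band 3. Slc4a1 was 97.4, 28.6, 44.5, 15.3 and 129 in P95H PHZ replicates 1 to 5, again with replicate 5 highest and replicate 4 lowest. These likenesses are descriptions, because all genes of a library share its depth and its cell makeup.

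Granulocyte and monocyte genes moved with treatment in P95H mice, where 15 of 15 tested were lower after PHZ by limma. Elane, a neutrophil protease, had a log2 fold change of -2.44 (adjusted p = 0.00501) and Mpo, the myeloperoxidase of granules, one of -2.34 (adjusted p = 0.00429). In Mx1-Cre mice 1 of 15 was lower, Ms4a3 at -1.05 (adjusted p = 0.0279). The list's median log2 fold change was negative in both, -1.86 in P95H mice and -0.93 in Mx1-Cre mice. The interaction called none of the 15. Of all entries, 17.7% were lower after PHZ in P95H mice and 14.9% in Mx1-Cre mice. With the mean of these genes as a covariate, the members' calls were the same. Leaving out P95H PBS replicates 4 and 5 gave a log2 ratio change of -0.66 after PHZ in P95H mice (exact permutation adjusted p = 0.0714, which 3 against 5 libraries cannot bring under 0.05 over 4 comparisons).

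Factors that control the globin clusters were read from a list of 26 genes, of which 22 were tested. After PHZ, 3 rose and 5 fell in Mx1-Cre mice, and 1 rose and 9 fell in P95H mice by limma. Among all entries 17% rose and 14.9% fell in Mx1-Cre mice, and 12.6% rose and 17.7% fell in P95H mice. The list's median log2 fold change was -0.02 and -0.000989, beside -0.00153 and -0.0153 over all entries. Gata2, the GATA factor of earlier progenitors, fell by 0.85 in Mx1-Cre mice (SE 0.153, adjusted p = 0.000296) and by 0.82 in P95H mice (adjusted p = 0.000389). Myb, a progenitor factor that holds back maturation, fell by 0.67 (SE 0.0975, adjusted p = 2.98e-05) and by 0.74 (adjusted p = 8.8e-06).

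Tal1, a partner of GATA1 at globin enhancers, rose by 0.58 in Mx1-Cre mice (SE 0.125, adjusted p = 0.00164) and by 0.39 in P95H mice (adjusted p = 0.0223). Lmo2, the bridging protein of the same complex, fell by 0.35 in Mx1-Cre mice (adjusted p = 0.000152) and by 0.33 in P95H mice (adjusted p = 0.000286). Nr2c1, a nuclear receptor that represses embryonic globins, fell by 0.28 (adjusted p = 0.00623) and by 0.36 (adjusted p = 0.000945). Klf1, the erythroid factor that binds CACCC motifs, had a change of -0.00 in Mx1-Cre mice (adjusted p = 0.991) and fell by 0.22 in P95H mice (adjusted p = 0.0189). The interaction called none of the 22. Between genotypes, none was called under PBS, and after PHZ 1 of the 22 was lower in P95H mice (4.37% of all entries were lower), namely Nfe2l2, a stress-response factor, at -0.26 (SE 0.0568, adjusted p = 0.00864).

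Neighbours of the alpha cluster were read from a list of 9, of which 6 were tested. After PHZ, 3 fell in Mx1-Cre mice and none was called in P95H mice, with medians of -0.15 and -0.16. Over all entries 14.9% fell in Mx1-Cre mice, and 30.2% were called in P95H mice. Hbq1b, a theta-type alpha-like globin, went from 3.51 ± 0.628 to 1.71 ± 0.293 in Mx1-Cre mice (SD, n = 5), a log2 fold change of -0.73 (SE 0.166, limma adjusted p = 0.00220), and in P95H mice it changed by -0.30 (adjusted p = 0.184). Nprl3, whose introns hold the main alpha-globin enhancers, fell by 0.27 in Mx1-Cre mice (adjusted p = 0.0262) and Mpg, a DNA repair gene beside it, by 0.20 (adjusted p = 0.0337). The interaction called none of the 6. Of the other beta-like genes, Hbb-bh0, Hbb-bh2 and Hbb-bh3 were listed at 0 in all 20 libraries.

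Haem, the cofactor of the globin chains, is made by a separate enzyme chain. Of 14 haem genes tested, 2 rose and 2 fell after PHZ in Mx1-Cre mice, and 2 rose and 1 fell in P95H mice. The shares over all entries were 17% and 14.9% in Mx1-Cre mice and 12.6% and 17.7% in P95H mice, so the Mx1-Cre counts are near the background. The list's medians were -0.03 and 0.04. Cpox, a late enzyme of the chain, rose by 0.45 (SE 0.0787, limma adjusted p = 0.000218) and by 0.49 (adjusted p = 8.19e-05), and Flvcr1, the haem exporter, by 0.41 (adjusted p = 0.000204) and 0.42 (adjusted p = 0.000139). Urod, which acts before Cpox, fell by 0.29 (adjusted p = 0.0136) and by 0.31 (adjusted p = 0.00839). Of 10 genes of protein quality control, Hspa9, a mitochondrial chaperone, rose by 0.32 in Mx1-Cre mice (adjusted p = 0.00117) and Bag1, a chaperone cofactor, fell by 0.29 in P95H mice (adjusted p = 0.00457), with the other 9 in each case not called.

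Of the 18 late erythroid markers, 1 rose and 4 fell after PHZ in Mx1-Cre mice, and 2 rose and 4 fell in P95H mice. The list's medians were -0.16 and -0.14. Over all entries 17% rose and 14.9% fell in Mx1-Cre mice, and 12.6% rose and 17.7% fell in P95H mice. Rhd, a blood group protein, fell by 0.44 (SE 0.0798, limma adjusted p = 0.000278) and by 0.46 (adjusted p = 0.000170). Among the 9 CFU-E markers, 2 rose and 3 fell after PHZ in Mx1-Cre mice, and 2 rose and 4 fell in P95H mice. Tfrc, the transferrin receptor that takes up iron, rose by 0.89 (adjusted p = 9.09e-06) and 0.75 (adjusted p = 5.67e-05), and Kit, the stem cell factor receptor, fell by 0.80 (adjusted p = 0.00073) and 0.77 (adjusted p = 0.000962). Car1, a carbonic anhydrase of early erythroid cells, was lower after PHZ in P95H mice, by a log2 difference from Mx1-Cre of -0.59 (SE 0.121, adjusted p = 0.00709), and no other marker of the 9 was called between the genotypes. The Kit and Tfrc changes accompany the lower alpha-to-beta ratio in both genotypes, and their part in it was not tested.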

How the data were processed

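Per gene entry and library, the authors deposited a normalised signal in a single table. The tools RSEM 1.2.4, Bowtie, TopHat2 2.0.8b and TopHat are named per the submitters' processing notes, as are mouse (GRCm38, mm10) and human (GRCh37, hg19) builds, all without a role. In each library every deposited value, divided by 1 factor (0.940 to 1.10), lay within 0.01 step lengths of a whole number of steps of size 0.01 (100% of values), and the divided signal summed to 979638 to 992743. The annotation release and the making of the factors are not given in the sources used here. No read counts can be read from the signal, so no count test was run.

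Values were used as deposited on a log2(signal + 1) scale, and fold changes on it understate those of low genes. Entries with at least 1 in at least 5 libraries (10890) were fitted with limma 3.58.1 in R 4.3.3, with 4 groups sharing 1 spread and Benjamini-Hochberg adjustment over all entries at 0.05. Sums replaced their copies in a refit of the same table. Ratios were tested by two-sided exact permutation. The fits were first checked on simulated data. GENCODE vM21 gave symbols (35986 of 37748 entries) and RefSeq gave promoters.

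The members and lists were chosen with earlier results of these data known. Named genes were the members, the 5 most like each sum, and, from each list and comparison, up to 4 called genes with the largest change and 3 others with the highest mean; 1 gene that this rule names is not reported here. Alternatives covered the pseudocount, filter, scaling, samples in the fit, a granulocyte covariate, left-out libraries and the replicate number as a block.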

Additional observations from a re-analysis of the deposited data

Results flagged for a closer look

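Each of 40 sets of 5 libraries was checked for a library standing apart from the other 4, and 4 were found. A chance rate of about 1 in 20 cannot be held against this count. The sums and the ratio reuse the members' values, and sets of equal values cannot be flagged. Hba-x was 1.04 in Mx1-Cre PBS replicate 2, and between 0.173 and 0.246 in the other libraries of that group. Hbb-bh1 was 0.377 in Mx1-Cre PHZ replicate 1 and listed at 0 in the other 4, a pattern that is flagged at any value. Hbb-y was listed at 0 in P95H PHZ replicate 2, and between 0.207 and 0.298 in the others. The log2 alpha-to-beta ratio was 0.17 in P95H PHZ replicate 3 and between 0.48 and 0.53 in the others.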

How the results depend on the processing

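Under the alternatives tried, 508 recomputed values of the main results kept their direction and side of the threshold, 11 changed sign, 5 counts moved, 3 values came to pass the threshold and 1 no longer passed it. With only the compared groups in the fit, 2 members were called after PHZ in Mx1-Cre mice and the alpha sum passed at -0.58 (limma adjusted p = 0.0237). Leaving out 1 library at a time called 0 to 1 member there (Hba-a2, without Mx1-Cre PBS replicate 5 or P95H PHZ replicate 4 or 5) and 0 to 1 in P95H mice (Hbb-bt at 0.72, adjusted p = 0.0334, without P95H PHZ replicate 4). The fall of the ratio ranged from -0.79 to -0.69 in Mx1-Cre mice and from -0.81 to -0.68 in P95H mice (exact permutation adjusted p = 0.0317 throughout). It was -0.66 (adjusted p = 0.0714) in P95H mice without P95H PBS replicates 4 and 5.

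Values near 0 changed sign. For P95H against Mx1-Cre under PBS, the beta sum was 0.0031 with TMM factors, 0.012 with the granulocyte covariate, 0.19 without P95H PBS replicates 4 and 5, and -0.14 to 0.11 over single left-out libraries. Without those 2 replicates the alpha sum was 0.018, Hba-a1 0.048 and Hbb-bt 0.11. Over single left-out libraries, Hbb-bs was -0.050 to 0.23, Hbb-bt -0.23 to 0.00099 and Hba-a2 -0.22 to 0.0072. After PHZ, the genotype difference over such fits was -0.056 to 0.41 for the alpha sum, -0.12 to 0.34 for Hba-a1, -0.023 to 0.35 for Hbb-bt and -0.13 to -0.034 for the ratio (exact permutation adjusted p = 0.0423 without Mx1-Cre PHZ replicate 2). From single copies, added later, that ratio was -0.31 for Hba-a1 over Hbb-bs and 0.18 for Hba-a2 over Hbb-bt, and the latter was 0.015 under PBS. Hbb-bs after PHZ in Mx1-Cre mice was -0.00030 with quantile normalization and -0.069 to 0.21 over left-out libraries. The causes were not tested.

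With the replicate number as a block the alpha sum after PHZ in Mx1-Cre mice was -0.58 (limma adjusted p = 0.161), and no member's call changed; calls over all entries went from 3474 to 3579. The numbers are not known to pair libraries. Deviations from the group means of same-numbered libraries correlated between -0.306 and 0.270. For PHZ against PBS, 3 of 5 libraries matched their own number best in Mx1-Cre mice and 2 of 5 in P95H mice. Between the genotypes, 0 of 5 did so under either treatment. The ratio, from an exact test, had no blocked fit, and planned fits for the gene not analysed here were not run. The values keep no read depth, which limits what can be said of the embryonic genes.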
